A study of Hyacinthus orientalis with 189 samples.

Results

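The perianth of a hyacinth flower lives on imported sugar, and the proteins described here carry sucrose and hexoses across membranes or split sucrose. They were found among 494326 unigenes, a unigene being one transcript kept for each cluster of the assembly, by the words SWEET, invertase, fructofuranosidase, sucrose synthase, sucrose transport protein or sugar transport protein in the best Swiss-Prot match. Of the 340 unigenes with one of these 6 wordings, 198 had a mean of at least 0.5 FPKM (fragments per kilobase of transcript, scaled to the mapped fragments of the library) over all libraries and are the members. The members were thus chosen by their mean FPKM, so it is a description, and a unigene that was high in a single group of samples could pass on that group. The nearest unigenes below the limit had means of 0.442, 0.478 and 0.491 FPKM, and the nearest above it 0.529, 0.539 and 0.550 FPKM.

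The members fell into 7 families of carriers and enzymes, with 35 SWEETs, 34 sucrose transport proteins, 26 sugar transport proteins, 16 cell wall invertase-like and 12 vacuolar invertase-like beta-fructofuranosidases, 31 alkaline/neutral invertases and 28 sucrose synthases. A further 8 unigenes matched SWEETIE, a protein that shares only letters with the SWEET name, and 8 matched invertase inhibitors. Both were kept out of the 7 families, but they belong to the 198 members and enter every count of members below. Every match was to a plant protein, from 14 species. The shortest member was 307 bp and the longest 5653 bp (median 972.5 bp), and 96 of the 198 were at least 1000 bp long, so that several members may be pieces of one gene, and reads of near-identical members could be split between unigenes. The names below are those of the best match, written as "-like".

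In plants, sucrose arrives through the phloem, and SWEETs let sugars pass through membranes down their gradient. Cell wall invertases split sucrose to glucose and fructose outside the cell, proton-coupled sugar transport proteins take up these hexoses, and sucrose transport proteins take up sucrose itself. Inside the cell, vacuolar invertases, neutral invertases and sucrose synthases compete for sucrose, and hexoses stored in the vacuoles of an opening petal draw in the water that expands it.

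The libraries came from 63 flowers of 7 cultivars, which were 'Jan Bos' (red), 'Pink Pearl' (pink), 'Gipsy Queen' (orange), 'City of Haarlem' (yellow), 'China Pink' (pinkish white), 'Delft Blue' (blue) and 'Peter Stuyvesant' (dark purple). Each cultivar gave 3 flowers at each of 3 stages, which were green buds (Stage B), coloured buds (Stage C) and full anthesis (Stage A). Each flower was divided into perianth tube, inner lobes and outer lobes after stamens and pistil had been taken out. Bulbs were vernalised and grown outdoors, and the sources used here do not say whether the flowers of a condition came from separate plants, so that p-values measure only the spread between these flowers. In whole tissue, fewer cells of a type and less RNA per cell cannot be told apart. Unigenes matching B class MADS-box factors, which act in the identity of petals and of stamens, were present in every library. The 8 of them summed to 87.5 to 2955 FPKM in tubes, 350.2 to 5117 FPKM in inner lobes and 369 to 3759 FPKM in outer lobes. They cannot tell perianth from stamen tissue.

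Libraries held 12602472 to 20175882 counts, with a median of 13822438, and the members took a median of 0.164% of the FPKM sum in Stage B libraries, 0.440% in Stage C and 0.329% in Stage A. Stages and cultivars were compared over flowers, with the counts of the 3 partitions of a flower summed, and partitions over libraries, by edgeR's quasi-likelihood test with Benjamini-Hochberg adjustment over all unigenes tested. A change was called at an adjusted p under 0.05 with a log2 fold change beyond 1 in either direction. Errors of fold changes are approximate standard errors worked back from the test. Each is the absolute log2 fold change divided by the square root of its F statistic. Fitted fold changes are on the TMM scale, which balances the unigenes of a library, whereas FPKM is relative to the library total. The median log2 fold change of all unigenes tested in Stage A against Stage B was -0.27 on this scale, -0.41 with DESeq2's size factors and -0.91 with library totals, so that fitted fold changes of Stages A and C against B lie above the ratios of FPKM. FPKM values of a flower are means over its 3 partitions.

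Between the stages, members rose more often than they fell on the TMM scale, whereas with library totals as the scale more fell than rose in Stages A and C against Stage B. In Stage A against Stage B, 76 of 196 members tested were higher and 30 lower, or 38.8% and 15.3%, against 19.0% and 28.0% of all 202250 unigenes tested. In Stage C against Stage B, 55 members were higher and 27 lower, against 14.4% and 22.3% of all unigenes. In Stage A against Stage C, 26 were higher and 12 lower, against 9.44% and 8.08%. With library totals, an alternative chosen after seeing the data, 50 members were higher and 55 lower in Stage A against Stage B, 37 and 48 in Stage C against Stage B, and 23 and 19 in Stage A against Stage C, and of all unigenes 24644 were higher and 94144 lower in Stage A against Stage B. Higher calls were thus 71.7% of the members' calls in Stage A against Stage B on the TMM scale and 47.6% with library totals, against 40.4% and 20.7% of the calls of all unigenes. Counts of all unigenes with library totals are not given here for the other comparisons of stages. For the families, counts with library totals stand in parentheses, the unigenes called higher before those called lower. The median log2 fold change of Stage A against Stage B was 0.71 over the members, 3.32 over the vacuolar invertase-like unigenes, 2.22 over the SWEETs, 0.90 over the sugar transport proteins and -0.24 over the sucrose synthases, against -0.27 over all unigenes.

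**Figure D1:**
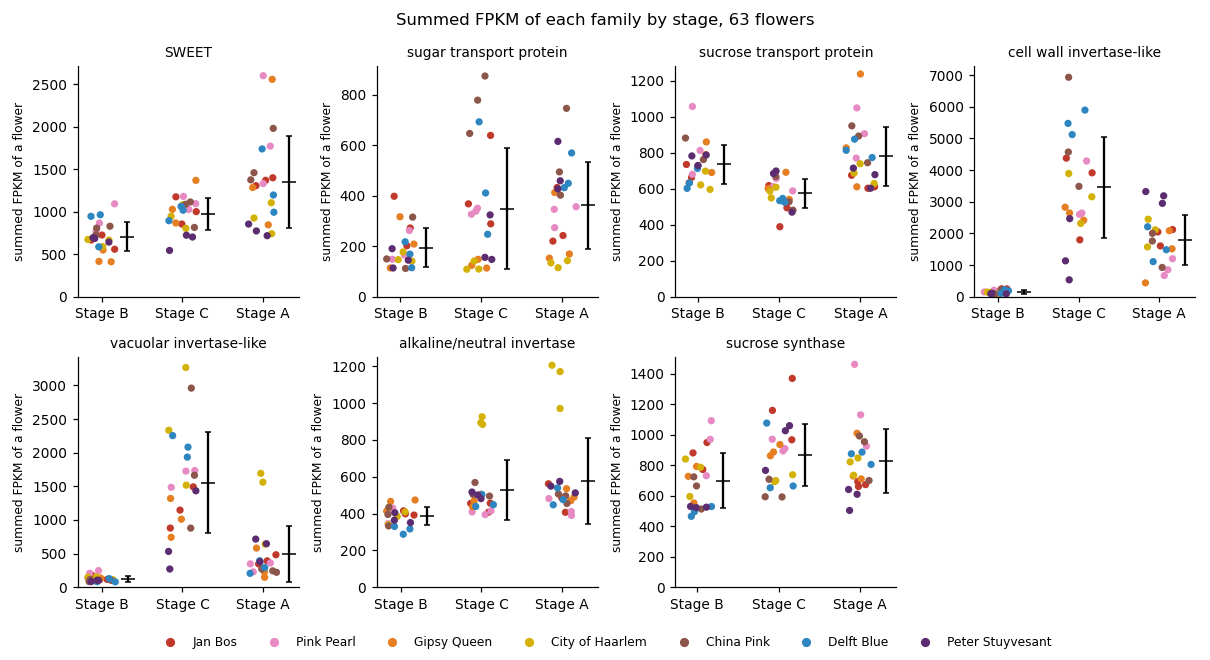
Summed FPKM of the members of each of the 7 families (y axis, from 0) in 63 flowers at Stage B (green bud), Stage C (coloured bud) and Stage A (full anthesis). Points are flowers coloured by cultivar, 21 per stage, and the black marks are the mean ± SD. The mean cell wall invertase-like sum is 145 FPKM at Stage B and 3451 FPKM at Stage C, where the vacuolar invertase-like sum is highest too and the sucrose transport protein sum is lowest.

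The acid invertase families changed most in level. The cell wall invertase-like sum was 145 ± 65.8 FPKM in Stage B, 3451 ± 1590.4 in Stage C and 1791 ± 788 in Stage A (SD, n = 21 flowers each). The vacuolar invertase-like sum was 126 ± 42.6 FPKM in Stage B, 1555 ± 752 in Stage C and 493 ± 409 in Stage A. The carriers stayed within narrower limits. The SWEET sum was 709 ± 171, 972 ± 190.0 and 1350.4 ± 537 FPKM at Stages B, C and A, the sugar transport protein sum was 194 ± 78.02, 349 ± 239.8 and 361 ± 172 FPKM, and the sucrose transport protein sum was 737 ± 109, 575 ± 81.2 and 781 ± 163 FPKM.

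The cell wall invertase-like unigenes were led in level by 3 unigenes, which made up 98.0% of the summed mean FPKM of the family. A CWINV1-like unigene (Cluster-20417.238189) had a lowest, median and highest level of 12.4, 48.03 and 120.0 FPKM in Stage B flowers, of 269.6, 1218 and 3074 FPKM in Stage C flowers and of 116, 673 and 1092 FPKM in Stage A flowers. All 21 Stage C flowers and 20 of 21 Stage A flowers were above the highest Stage B flower. It rose by 5.09 ± 0.26 on the log2 scale in Stage C against Stage B (edgeR adjusted p = 3.2e-25) and by 4.21 ± 0.25 in Stage A against Stage B (edgeR adjusted p = 1.3e-22). An insoluble isoenzyme 4-like unigene (Cluster-20417.242296) had medians of 14.3, 1011 and 629 FPKM at Stages B, C and A and rose by 6.43 ± 0.34 in Stage C and by 5.84 ± 0.33 in Stage A, each against Stage B. An insoluble isoenzyme 6-like unigene (Cluster-20417.227196) had medians of 23.2, 972 and 509.6 FPKM and rose by 5.82 ± 0.31 and 4.99 ± 0.30 in the same comparisons. For both, every Stage C and Stage A flower lay above every Stage B flower. All 3 were also assigned to the ortholog group of fructan beta-(2,1)-fructosidase, an enzyme that frees fructose from fructans. The Nr match of Cluster-20417.227196 is a fructan exohydrolase too. Whether these 3, and so the family sum, stand for enzymes that split sucrose or fructans cannot be told from their names. In all, 13 members carried the name of a fructan enzyme in the Nr or ortholog annotation.

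In Stage A against Stage B, 5 of 15 cell wall invertase-like unigenes tested were higher and 2 lower (5 and 4 with library totals), and in Stage C against Stage B 4 were higher and 5 lower. The course of the abundant ones was not the same in every cultivar. The family sum of 'Peter Stuyvesant' was 99.6 ± 11.7 FPKM in Stage B, 1378 ± 988 in Stage C and 3152 ± 188 in Stage A (SD, n = 3 flowers), whereas the 6 other cultivars had means from 2629 to 5495 FPKM at Stage C and from 909 to 2045 FPKM at Stage A. At Stage C its vacuolar invertase-like sum, 745 ± 610 FPKM, was the lowest mean of the cultivars too. In the study's correlation of whole libraries, Stage C of this cultivar was closer to Stage B than to Stage A, unlike in the other cultivars. Whether its course is particular to invertases was not tested. The CWINV1-like unigene had 269.6, 561 and 1055 FPKM in the Stage C flowers of 'Peter Stuyvesant' and 1028, 1033 and 1092 FPKM in its Stage A flowers. Over all cultivars, the test of stage by cultivar gave edgeR adjusted p = 0.00051 for this unigene, and 0.095 without the flowers numbered 1.

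**Figure D2:**
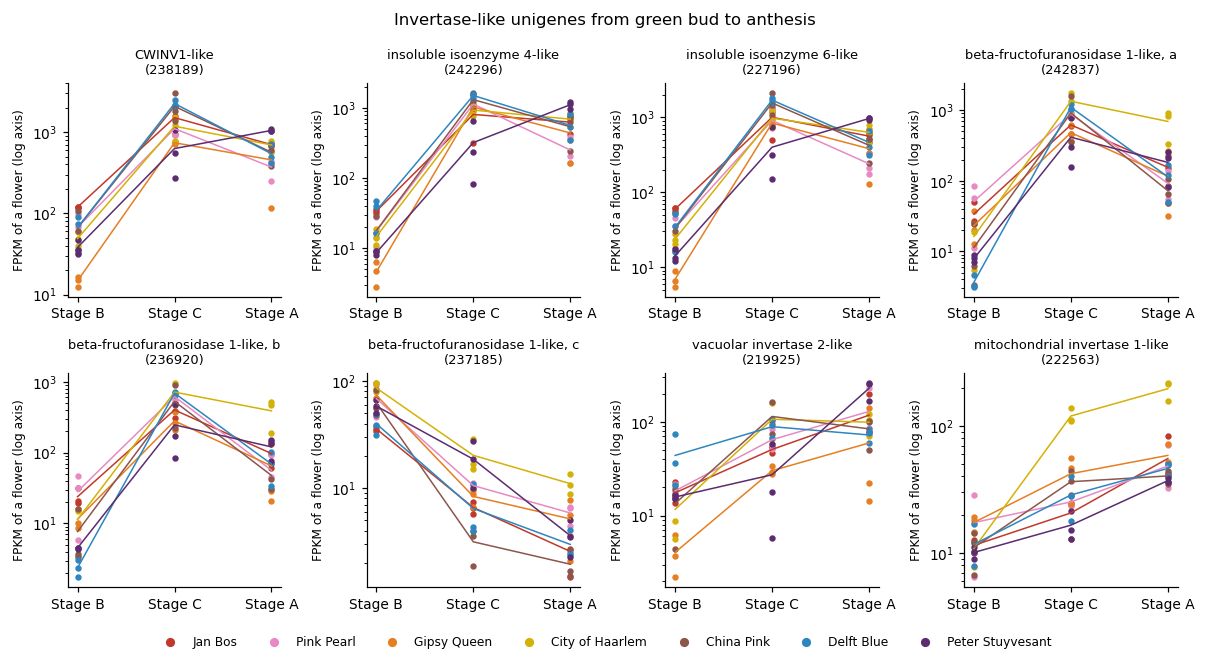
FPKM per flower (log axis) of 8 invertase-like unigenes at Stages B, C and A. Points are the 63 flowers coloured by cultivar and lines join the means of each cultivar (n = 3 flowers per stage); each panel is headed by the end of the cluster number. The CWINV1-like unigene lies at 120.0 FPKM or less in all Stage B flowers and at 269.6 FPKM or more in all Stage C flowers, and the beta-fructofuranosidase 1-like unigene in panel c falls.

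Proteins that match invertase inhibitors, a family known to bind cell wall and vacuolar invertases, moved in both directions. One of them (Cluster-20417.139689) had a lowest, median and highest level of 0, 0.103 and 0.883 FPKM in Stage B flowers, of 0.443, 4.62 and 182 FPKM in Stage C flowers and of 1.66, 88.8 and 535 FPKM in Stage A flowers. Every Stage A flower was above every Stage B flower, and it rose by 10.29 ± 0.66 on the log2 scale (edgeR adjusted p = 9.4e-22), a fitted value that rests on counts near 0 at Stage B. Another (Cluster-20417.279417) had medians of 11.6, 2.08 and 0.733 FPKM at Stages B, C and A and fell by 3.17 ± 0.31 in Stage A against Stage B, again with no overlap of flowers. In all, 3 of 8 were higher and 2 lower in Stage A against Stage B (2 and 3 with library totals).

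Vacuolar invertases release hexoses inside the vacuole, and the sum of the unigenes like them was highest in coloured buds. The leading unigene (Cluster-20417.242837), 52.9% of that sum at Stage C, had the best match beta-fructofuranosidase 1 and an acid invertase in Nr, but was assigned to the ortholog group of sucrose:sucrose fructosyltransferase, an enzyme that builds fructans, so that its activity cannot be told from its name. It had a lowest, median and highest level of 3.12, 12.5 and 85.4 FPKM in Stage B flowers, of 155, 805 and 1780.3 FPKM in Stage C flowers and of 31.8, 123 and 921 FPKM in Stage A flowers. Stage C and Stage B flowers did not overlap, and 12 of 21 Stage A flowers were above the highest Stage B flower. It rose by 5.88 ± 0.43 in Stage C against Stage B (edgeR adjusted p = 1.5e-18) and fell by 2.13 ± 0.37 in Stage A against Stage C (edgeR adjusted p = 4.0e-06). A second beta-fructofuranosidase 1-like unigene (Cluster-20417.236920) had medians of 8.69, 484 and 77.02 FPKM at Stages B, C and A, rose by 5.88 ± 0.40 in Stage C against Stage B and fell by 2.11 ± 0.35 in Stage A against Stage C. Of the 11 unigenes tested, 8 were higher and 2 lower in Stage C against Stage B, and 8 were lower and 0 higher in Stage A against Stage C.

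Not every vacuolar invertase-like unigene took this course. A vacuolar isoform 2-like unigene (Cluster-20417.219925), whose Nr match is a fructosyltransferase-like protein, had medians of 16.05, 58.2 and 84.9 FPKM at Stages B, C and A and rose by 3.56 ± 0.31 in Stage A against Stage B (edgeR adjusted p = 7.9e-16). Another beta-fructofuranosidase 1-like unigene (Cluster-20417.237185) belonged to the green bud, with a lowest, median and highest level of 31.3, 55.9 and 95.6 FPKM in Stage B flowers, of 1.88, 9.61 and 28.6 FPKM in Stage C flowers and of 1.46, 3.54 and 13.5 FPKM in Stage A flowers. Neither Stage C nor Stage A flowers overlapped with Stage B flowers, and it fell by 3.22 ± 0.18 in Stage A against Stage B (edgeR adjusted p = 4.5e-24). A soluble isoenzyme I-like unigene (Cluster-20417.274891) and an acid beta-fructofuranosidase-like unigene (Cluster-20417.141535), at Stage C medians of 1.01 and 1.03 FPKM, fell by 2.59 ± 0.33 and 2.34 ± 0.40 in Stage A against Stage C.

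Among SWEETs, 23 of 35 were higher and 4 lower in Stage A against Stage B (21 and 8 with library totals), and 10 were higher and 0 lower in Stage A against Stage C. In the same comparison 23 of 40 stamen and pollen unigenes, which are described with the tube results, were higher and 1 lower, and at Stage A the SWEET sum was 2069.6 ± 1207 FPKM in tubes, against 1032 ± 263 in inner and 950.0 ± 247 in outer lobes. The part of stamen tissue in these levels was not tested. With counts of the lobes alone 21 of 32 SWEETs were higher and 6 lower in Stage A against Stage B, and without the 15 flowers whose tubes were high in those genes 22 and 5 of 35, both fits chosen after seeing the data. Shares of all unigenes in those fits are not given here, and neither fit tested the part of stamen tissue. A SWEET15-like unigene (Cluster-20417.235886) had medians of 167, 139 and 180.1 FPKM at Stages B, C and A, and its fitted change of 0.91 ± 0.12 in Stage A against Stage B was under the fold limit. A SWEET14-like unigene (Cluster-20417.216434) had medians of 125, 137 and 209 FPKM and rose by 1.71 ± 0.18 (edgeR adjusted p = 9.0e-13), with 5 of 21 Stage A flowers above the highest Stage B flower. In Arabidopsis and rice, SWEETs of this group export sucrose.

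Larger changes were seen in SWEETs of lower level. A SWEET4-like unigene (Cluster-20417.198465), of a group known as hexose carriers, had a lowest, median and highest level of 2.35, 4.82 and 88.7 FPKM in Stage B flowers, of 11.9, 88.1 and 221 FPKM in Stage C flowers and of 33.95, 64.8 and 228 FPKM in Stage A flowers. It rose by 3.94 ± 0.34 in Stage C and by 3.83 ± 0.33 in Stage A, each against Stage B. The high green buds were those of 'Delft Blue', with 17.2, 48.2 and 88.7 FPKM, while no green bud of the 6 other cultivars had over 8.997 FPKM.

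The SWEET2a-like unigenes, of a group found at the vacuole membrane in Arabidopsis, rose with small errors. Cluster-20417.210025 had a lowest, median and highest level of 1.96, 4.70 and 8.43 FPKM in Stage B flowers, of 6.48, 10.7 and 33.4 FPKM in Stage C flowers and of 6.06, 21.6 and 60.7 FPKM in Stage A flowers, and rose by 3.28 ± 0.17 in Stage A against Stage B (edgeR adjusted p = 4.1e-25). Cluster-20417.231727 had medians of 3.77, 10.9 and 16.6 FPKM at Stages B, C and A and rose by 3.01 ± 0.16. In each, 20 of 21 Stage A flowers were above the highest Stage B flower. The SWEET17-like unigenes, known in Arabidopsis as fructose carriers of the vacuole, included ones that fell, such as Cluster-20417.208570, with medians of 6.57, 1.53 and 1.70 FPKM and a fall of 1.09 ± 0.26 in Stage A against Stage B (0.85, under the fold limit, without the flowers numbered 1).

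A SWEET14-like unigene (Cluster-20417.13292) was high in single flowers. It was at 0 FPKM in all 21 Stage B flowers and at no more than 0.0333 FPKM in Stage C flowers. The Stage A flowers had 0.283, 1.90 and 301 FPKM in 'Pink Pearl', 0, 0.583 and 126 FPKM in 'Gipsy Queen' and at most 7.97 FPKM in the 5 other cultivars, with a median of 0.0333 FPKM. The 'Gipsy Queen' flower that was high in it stood apart in other members too, with 342 FPKM of a SWEET1a-like unigene (Cluster-20417.169217) and 166 FPKM of the inhibitor-like Cluster-20417.139689, where the other Stage A flowers of that cultivar had 1.63 and 8.04 FPKM and 1.66 and 15.8 FPKM. Over all cultivars, the SWEET1a-like unigene had medians of 5.92, 11.8 and 42.00 FPKM at Stages B, C and A and rose by 3.86 ± 0.45 in Stage A against Stage B (edgeR adjusted p = 3.5e-11).

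Sucrose transport proteins, which carry sucrose with protons, were higher in 5 of 34 and lower in 4 in Stage A against Stage B (0 and 8 with library totals) and 20 of 34 were called in no comparison of stages, or 58.8%, against 45.4% of all unigenes. The most abundant ones were SUT1-like. Cluster-20417.241265 had medians of 114, 111 and 125 FPKM at Stages B, C and A and a change of 0.86 ± 0.12 in Stage A against Stage B. Cluster-20417.240249 had medians of 91.5, 109 and 133 FPKM and rose by 1.17 ± 0.11, and Cluster-20417.238154 had medians of 77.9, 107 and 129 FPKM and rose by 1.47 ± 0.13. Both calls ended with library totals, at 0.54 and 0.84 on the log2 scale. Flowers of Stages A and B overlapped in all 3.

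Other sucrose carriers dipped in the coloured bud. A SUC4-like unigene (Cluster-20417.247844), of a group found at the vacuole membrane in Arabidopsis, had a lowest, median and highest level of 78.7, 108 and 141 FPKM in Stage B flowers, of 21.5, 34.9 and 51.7 FPKM in Stage C flowers and of 32.4, 85.3 and 169 FPKM in Stage A flowers. No Stage C flower reached the lowest Stage B flower. It fell by 1.20 ± 0.11 in Stage C against Stage B (edgeR adjusted p = 7.7e-14) and rose by 1.49 ± 0.12 in Stage A against Stage C (edgeR adjusted p = 3.0e-15). A SUT2-like unigene (Cluster-20417.250254) had medians of 82.3, 17.9 and 63.5 FPKM at Stages B, C and A, fell by 1.70 ± 0.16 in Stage C against Stage B and rose by 1.84 ± 0.16 in Stage A against Stage C. Another (Cluster-20417.241903) had medians of 8.67, 2.09 and 4.79 FPKM, fell by 1.75 ± 0.15 and rose by 1.40 ± 0.15, and in both the Stage C flowers lay below all Stage B flowers.

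Sugar transport proteins, which take up hexoses with protons, were higher in 12 of 26 and lower in 4 in Stage A against Stage B (7 and 5 with library totals). An MST5-like unigene (Cluster-20417.209977) had a lowest, median and highest level of 2.98, 20.8 and 85.8 FPKM in Stage B flowers, of 12.8, 48.5 and 315 FPKM in Stage C flowers and of 17.6, 90.1 and 229.7 FPKM in Stage A flowers. It rose by 1.86 ± 0.35 in Stage A against Stage B (edgeR adjusted p = 4.2e-06), with 11 of 21 Stage A flowers above the highest Stage B flower. An MST4-like unigene (Cluster-20417.229080) had medians of 12.3, 36.9 and 40.04 FPKM at Stages B, C and A and rose by 1.89 ± 0.33. A sugar transport protein 7-like unigene (Cluster-20417.249994) had medians of 44.7, 74.5 and 41.97 FPKM and rose by 1.06 ± 0.12 in Stage C against Stage B, a call that ended with DESeq2's size factors (0.91) and with library totals (0.58). Cultivars differed in the family sum, with means of 155, 119.9 and 131 FPKM at Stages B, C and A in 'City of Haarlem' and of 192, 766 and 547 FPKM in 'China Pink'.

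Alkaline/neutral invertases, which split sucrose in the cytosol and in organelles, were higher in 15 of 31 and lower in 3 in Stage A against Stage B (7 and 4 with library totals). A mitochondrial invertase 1-like unigene (Cluster-20417.245549) had a lowest, median and highest level of 13.3, 16.8 and 20.8 FPKM in Stage B flowers, of 17.4, 25.99 and 33.2 FPKM in Stage C flowers and of 27.4, 33.2 and 39.7 FPKM in Stage A flowers. Stage A and Stage B flowers did not overlap, and it rose by 1.62 ± 0.08, with the smallest p of any member in that comparison (edgeR adjusted p = 2.0e-26), and by 0.98, just under the fold limit, with library totals.

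In this family 'City of Haarlem' stood apart. A mitochondrial invertase 1-like unigene (Cluster-20417.222563) had means of 10.8, 119.7 and 196 FPKM at Stages B, C and A in that cultivar, while the means of the 6 others were 10.1 to 17.4 FPKM in Stage B, 16.5 to 42.1 in Stage C and 37.1 to 58.6 in Stage A. Over all cultivars it rose by 2.81 ± 0.20 in Stage A against Stage B without overlap of flowers (edgeR adjusted p = 1.1e-19), and the test of stage by cultivar gave edgeR adjusted p = 0.00038, and 0.10 without the flowers numbered 1. The family sum of 'City of Haarlem' was 377 ± 35.6 FPKM in Stage B, 901 ± 21.9 in Stage C and 1116 ± 127 in Stage A (SD, n = 3 flowers), while the means of the 6 others at Stage A ran from 427 to 545 FPKM.

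In 2 cytosolic invertase 1-like unigenes, 'Gipsy Queen' departed. Cluster-20417.201139 had means of 23.2, 14.8 and 11.2 FPKM at Stages B, C and A in that cultivar, while those of the 6 others were 7.44 to 21.6, 22.5 to 35.99 and 17.7 to 29.9 FPKM (stage by cultivar, edgeR adjusted p = 1.9e-07). Cluster-20417.248764 had means of 23.00, 18.6 and 15.1 FPKM in 'Gipsy Queen' and of 10.5 to 21.6, 24.1 to 40.6 and 18.02 to 33.9 FPKM in the others (stage by cultivar, edgeR adjusted p = 3.4e-07). The other abundant unigenes of this family, Cluster-20417.223603 and Cluster-20417.228775, had medians of 46.2, 30.2 and 23.1 FPKM and of 28.95, 41.97 and 37.3 FPKM at the 3 stages.

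Sucrose synthases, which split sucrose reversibly to UDP-glucose and fructose, were higher in 4 of 28 and lower in 4 in Stage A against Stage B (1 and 13 with library totals), and 19 of 28 were called in no comparison of stages, or 67.9%, against the 45.4% of all unigenes. A sucrose synthase 3-like unigene (Cluster-20417.240235) had medians of 167, 215 and 211 FPKM at Stages B, C and A, and a sucrose synthase 1-like unigene (Cluster-20417.240073) had 104, 119 and 121 FPKM. A sucrose synthase 2-like unigene (Cluster-20417.237427), whose match is from tulip, had a lowest, median and highest level of 27.7, 61.00 and 247 FPKM in Stage B flowers, of 34.95, 233 and 339.7 FPKM in Stage C flowers and of 22.1, 90.01 and 214 FPKM in Stage A flowers. It rose by 1.73 ± 0.18 in Stage C against Stage B (edgeR adjusted p = 1.2e-12), the 1 call of the family in that comparison (1 and 4 with library totals). A second sucrose synthase 3-like unigene (Cluster-20417.235150) had medians of 10.3, 4.09 and 2.02 FPKM and fell by 1.73 ± 0.13 in Stage A against Stage B.

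Of the SWEETIE matches, known in Arabidopsis for a part in sugar metabolism, 5 of 8 were lower and 0 higher in Stage A against Stage B (8 lower with library totals). The one with the smallest p (Cluster-20417.246788) had medians of 11.8, 4.91 and 3.31 FPKM at Stages B, C and A and fell by 1.20 ± 0.10, without overlap of Stage A and Stage B flowers.

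**Figure D3:**
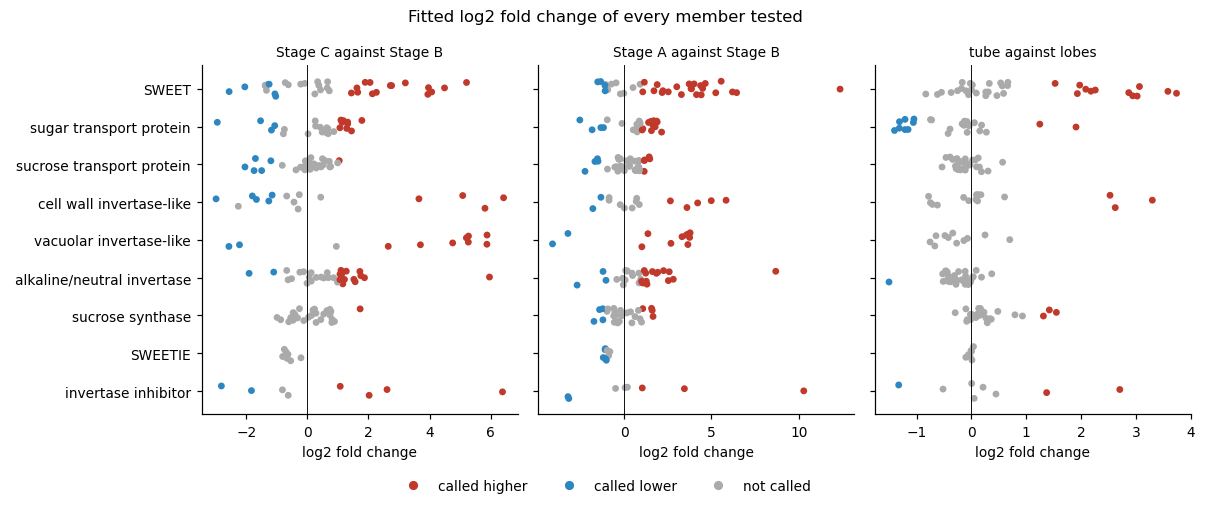
Fitted log2 fold change (x axis) of every member tested in Stage C against Stage B, Stage A against Stage B and perianth tube against lobes, by family (rows). Each point is a unigene, red where called higher, blue where called lower and grey where not called. On the TMM scale drawn here 76 points are red and 30 blue in Stage A against Stage B (50 and 55 with library totals), while 22 are red and 10 blue in tube against lobes.

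Between partitions, fewer members changed. In perianth tube against lobes, 22 of 192 members tested were higher and 10 lower, against 2.79% and 3.04% of 167352 unigenes. SWEETs were higher in the tube in 12 and lower in 0, and sugar transport proteins were higher in 2 and lower in 8. Of 33 sucrose transport proteins tested 0 were called by edgeR, DESeq2 or limma voom. In edgeR 15 of them had an unadjusted p under 0.05, as had 65354 of all 167352 unigenes. In inner against outer lobes, 1 member was higher and 0 lower, against 0.321% and 0.0526% of unigenes, and DESeq2 called 0 members.

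Hexose carriers were among the members lower in the tube. An MST6-like unigene (Cluster-20417.259588) had a lowest, median and highest level of 0, 3.18 and 25.4 FPKM in the tube, against 1.07, 8.92 and 75.2 FPKM in inner lobes and 1.16, 8.22 and 84.3 FPKM in outer lobes. The tube was below the mean of the lobes in 60 of 63 flowers, and it fell by 1.40 ± 0.15 in tube against lobes (edgeR adjusted p = 8.0e-15). The MST5-like Cluster-20417.209977 averaged 33.5 FPKM in the tube, against 76.4 in inner and 81.99 in outer lobes, was lower in the tube in 58 of 63 flowers, and fell by 1.32 ± 0.16. Another MST6-like unigene (Cluster-20417.237360) averaged 10.05 FPKM in the tube, against 22.8 in inner and 23.2 in outer lobes and fell by 1.31 ± 0.16. The CWINV1-like Cluster-20417.238189 averaged 555 FPKM in the tube, against 776 in inner and 714 in outer lobes, with a change of -0.78 ± 0.10 that was under the fold limit and 53 of 63 flowers lower in the tube.

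A cell wall invertase-like unigene of low level had its highest levels in the tube. The insoluble isoenzyme 3-like unigene Cluster-20417.286745 averaged 4.73 FPKM in the tube, against 0.514 in inner and 0.336 in outer lobes. It was higher in the tube in 56 of 63 flowers and rose by 3.30 ± 0.21 (edgeR adjusted p = 2.3e-37), the smallest p of the members in this comparison. Over stages it had medians of 3.49, 0.933 and 0.447 FPKM at Stages B, C and A and fell by 1.79 ± 0.40 in Stage A against Stage B, a call that ended with the counts of the lobes alone (-0.92). The sucrose synthase 2-like Cluster-20417.237427 averaged 182 FPKM in the tube, against 93.3 in inner and 93.8 in outer lobes and was higher in the tube in 61 of 63 flowers, at a change of 0.79 ± 0.08 that was under the fold limit.

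**Figure D4:**
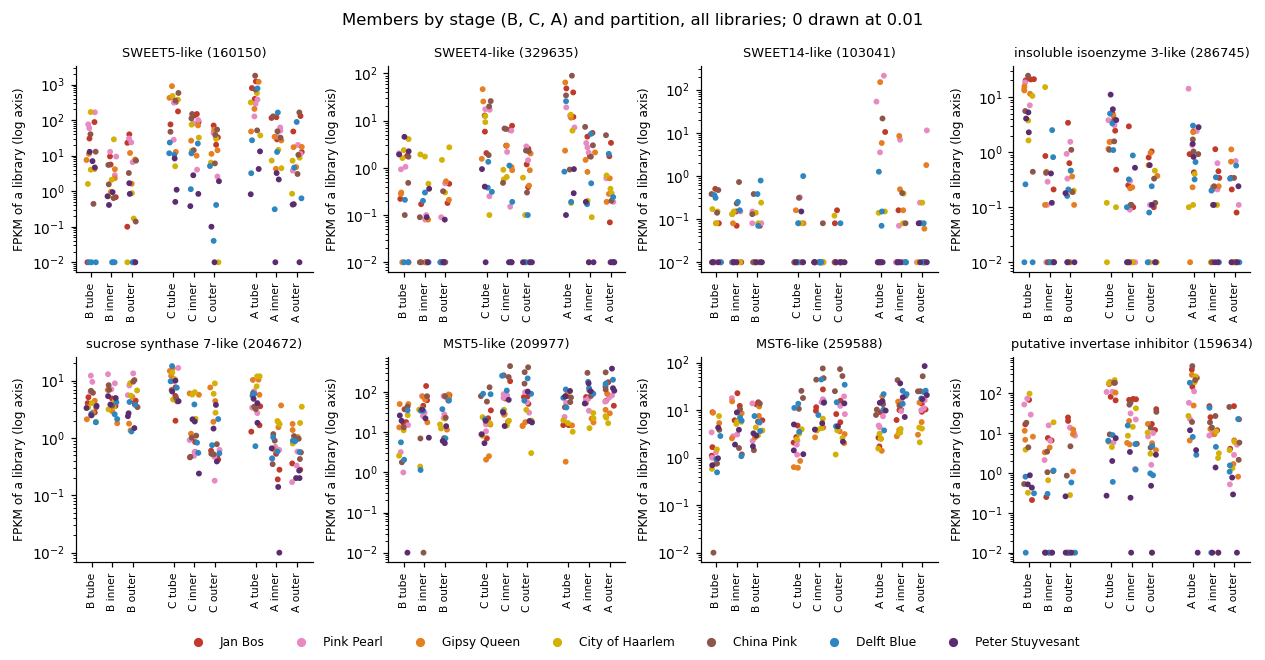
FPKM per library (log axis, 0 drawn at 0.01) of 8 members by stage (B, C, A) and partition (tube, inner lobes, outer lobes). Points are all libraries, 21 per stage and partition, coloured by cultivar. The insoluble isoenzyme 3-like unigene averages 4.73 FPKM in tubes, and the MST5-like and MST6-like unigenes lie lower in tubes than in lobes.

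Some of the members high in the tube moved with stamen and pollen genes. A list of 40 unigenes, found by words for pollen and anther, held 17 pollen-specific proteins, 7 pollen receptor-like kinases, 14 matches of callose synthase 5, an enzyme of the pollen wall, and 2 matches of tapetum and exine proteins. It had 21 of 39 tested higher in the tube and 0 lower, and 23 higher and 1 lower in Stage A against Stage B (17 and 7 with library totals). The list summed to over 2000 FPKM in 15 tube libraries, 0 of its unigenes were at 0 in all 126 lobe libraries, and 8 were at 0 in more than 50% of them. It summed to 321 to 5282 FPKM in tubes, against 411 to 1629 FPKM in inner and 354 to 1640.4 FPKM in outer lobes. In the Stage A tubes of 'China Pink' the list summed to 568, 2149 and 5282 FPKM, and a SWEET5-like unigene (Cluster-20417.160150) had 51.4, 724 and 1782 FPKM in the same libraries. In those of 'Gipsy Queen' the list summed to 3235, 321 and 1117 FPKM, and the SWEET5-like unigene had 1199, 48.02 and 207 FPKM. In those of 'Peter Stuyvesant' the list summed to 1246, 1329 and 824 FPKM, with 13.2, 4.22 and 0.820 FPKM of the SWEET5-like unigene.

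Over all stages this SWEET5-like unigene averaged 227 FPKM in the tube, against 33.1 in inner and 18.1 in outer lobes, and it rose by 2.87 ± 0.27 in tube against lobes (edgeR adjusted p = 5.2e-18). A SWEET4-like unigene (Cluster-20417.329635) averaged 9.79 FPKM in the tube, against 1.53 in inner and 0.644 in outer lobes, rose by 3.02 ± 0.21, and was also the member called in inner against outer lobes, at 1.16 ± 0.30 (edgeR adjusted p = 0.029), a call that ended without the flowers numbered 1 (adjusted p = 0.19) or 2 (adjusted p = 0.19), and in DESeq2 (adjusted p = 0.46). A SWEET6a-like unigene (Cluster-20417.320371) averaged 24.7 FPKM in the tube, against 4.01 in inner and 2.03 in outer lobes and rose by 2.94 ± 0.23. The inhibitor-like Cluster-20417.159634 averaged 76.4 FPKM in the tube, against 13.4 in inner and 7.67 in outer lobes and rose by 2.71 ± 0.23. In these 4 the Stage A tubes of 'China Pink' with list sums of 2149 and 5282 FPKM were above that with 568 FPKM, and the part of stamen tissue in their levels was not tested. Without the 15 flowers whose tube list summed to over 2000 FPKM, an alternative chosen after seeing the data, the tubes kept summed to at most 1880.0 FPKM of the list, and the fitted difference of tube and lobes was 2.22 for the SWEET5-like, 2.19 for the SWEET4-like, 2.23 for the SWEET6a-like and 1.98 for the inhibitor-like unigene on the log2 scale, with each called, and 19 members were higher and 10 lower. The call in inner against outer lobes ended without those flowers (adjusted p = 0.085).

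**Figure D5:**
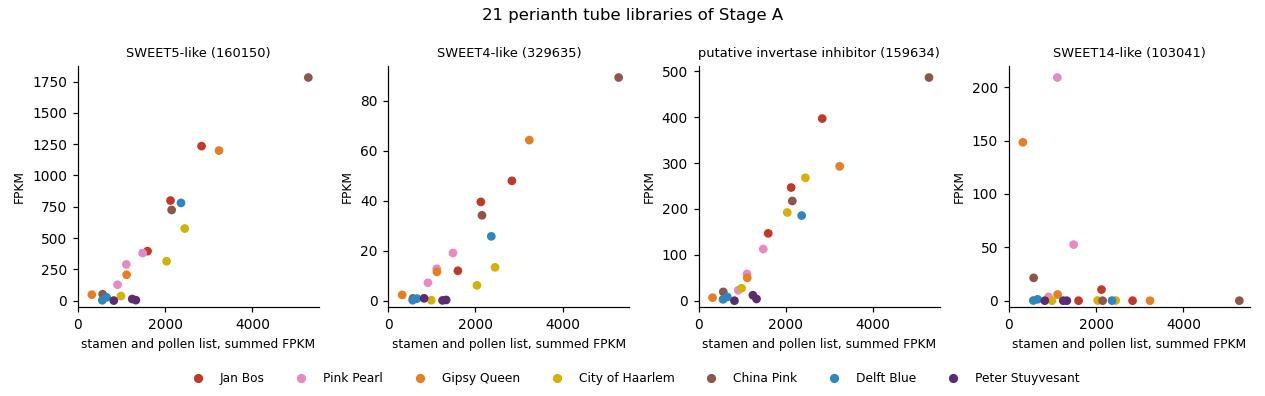
FPKM of 4 members (y axes) against the summed FPKM of the 40 stamen and pollen unigenes (x axes) in the 21 Stage A tube libraries, both on linear axes, coloured by cultivar. The SWEET5-like unigene reaches 1782 FPKM in the tube with the highest list sum, and the SWEET14-like unigene is high in 2 tubes with list sums of 1111 and 321 FPKM.

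The SWEET14-like Cluster-20417.103041 did not go with that list. Its Stage A tubes had 3.51, 209 and 52.5 FPKM in 'Pink Pearl' and 0, 148 and 5.78 FPKM in 'Gipsy Queen', where the list summed to 909.7, 1111 and 1484 FPKM and to 3235, 321 and 1117 FPKM. The high tubes were those of the flowers that stood out in Cluster-20417.13292.

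The difference between tube and lobes changed with stage in 36 members, 28 higher and 8 lower in the difference at Stage A minus that at Stage B, against 6.50% and 2.16% of unigenes. Without the flowers numbered 2 it changed in 23. Sucrose synthases had the smallest p-values among the higher. A sucrose synthase 5-like unigene (Cluster-20417.244621) averaged 5.97 FPKM in the tube, against 0.859 in inner and 0.945 in outer lobes at Stage A, and 4.13 FPKM in the tube, against 5.06 in inner and 5.33 in outer lobes at Stage B. The tube was above the lobes in 21 of 21 Stage A flowers and in 3 of 21 Stage B flowers, and the difference of the log2 fold changes was 3.13 ± 0.29 (edgeR adjusted p = 6.1e-18). A sucrose synthase 7-like unigene (Cluster-20417.204672) and another sucrose synthase 5-like unigene (Cluster-20417.263432) differed by 2.81 ± 0.27 and 3.03 ± 0.50.

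Among the lower was the inhibitor-like Cluster-20417.139689, which averaged 42.4 FPKM in the tube, against 166 in inner and 198 in outer lobes at Stage A, and 0.287 FPKM in the tube, against 0.0743 in inner and 0.123 in outer lobes at Stage B. All 21 Stage A flowers had less in the tube than in the lobes, and the difference was -3.74 ± 0.83 (edgeR adjusted p = 0.00022), a fitted value that rests on counts near 0 at Stage B. A further inhibitor-like unigene (Cluster-20417.174911) had a difference of -1.47 ± 0.27, and an MST3-like unigene (Cluster-20417.317689) one of -2.56 ± 0.72, which was no longer called without the flowers numbered 3 (adjusted p = 0.30) or those high in stamen genes (adjusted p = 0.26).

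Cultivars differed in most members, as in most unigenes. The F test over the 7 cultivars, with more than 1 on the log2 scale between the highest and the lowest, called 144 of 196 members, against 77.6% of all unigenes. The smallest p-values belonged to members found in some cultivars only. A sucrose synthase 5-like unigene (Cluster-20417.230170) averaged 5.63 FPKM over the 9 flowers of 'Jan Bos' and 5.35 FPKM over those of 'Pink Pearl', and at most 0.105 FPKM in the 5 others (edgeR adjusted p = 7.7e-38). A mitochondrial invertase 1-like unigene (Cluster-20417.371558) averaged 1.86 FPKM in 'China Pink' and 2.10 FPKM in 'Delft Blue', and at most 0.250 FPKM in the 5 others. In their 5 lower cultivars, Cluster-20417.371558 and Cluster-20417.230170 averaged less than the minimum mean FPKM of members. Both thus became members through the cultivars where they were high, and their cultivar differences rest on the same values. An alkaline/neutral invertase B-like unigene (Cluster-20417.219430) averaged 15.99 FPKM in 'Jan Bos' and at most 0.861 FPKM in the 6 others. An MST3-like unigene (Cluster-20417.139957) averaged at most 0.0226 FPKM in 'Jan Bos', 'Gipsy Queen' and 'City of Haarlem' and at least 1.15 FPKM in the 4 others. It too became a member through the cultivars where it was high, and its cultivar difference rests on the same values. For Cluster-20417.219430, the high level in 'Jan Bos' entered the mean by which it became a member. Reads of a variant copy can go to another unigene of the assembly, and alleles and genes cannot be told apart here.

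The course over stages differed between cultivars in 129 of 196 members at an adjusted p under 0.05, against 23.3% of unigenes, and in 68 to 79 when the flowers of any one number were left out. The smallest p belonged to a SWEET16-like unigene (Cluster-20417.247890; edgeR adjusted p = 9.5e-10), of a group known in Arabidopsis from the vacuole membrane. In 'City of Haarlem' its flowers had 168, 172 and 202 FPKM in Stage B, 16.7, 22.2 and 28.3 in Stage C and 17.4, 25.7 and 28.4 in Stage A. In 'Delft Blue' they had 48.1, 59.5 and 76.1 FPKM in Stage B, 168, 194 and 321 in Stage C and 124, 129 and 167 in Stage A. The means of the 5 other cultivars were 127 to 175, 122 to 232 and 78.98 to 153 FPKM at Stages B, C and A, so that 'City of Haarlem' had the lowest means at Stages C and A and 'Delft Blue' the lowest at Stage B. The SWEET4-like Cluster-20417.198465, high in green buds of 'Delft Blue', followed (edgeR adjusted p = 5.7e-09).

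'China Pink' is named in the study as a sport, a bud mutant, of 'Delft Blue'. Between them, 0 of 196 members were higher and 0 lower by edgeR, against 0.182% and 0.0821% of unigenes. Of the 196 members, 23 had an unadjusted p under 0.05 in edgeR, as had 19404 of all 202250 unigenes. DESeq2 called 2 members, both lower in 'China Pink', and without the flowers numbered 3 edgeR called 4, all higher in 'China Pink'. Of the 40 stamen and pollen unigenes 4 were higher in 'China Pink' and 0 lower. In Stage B alone the SWEET4-like Cluster-20417.198465 had 3.29, 6.16 and 7.12 FPKM in 'China Pink' and 17.2, 48.2 and 88.7 FPKM in 'Delft Blue', without overlap, and over all stages its fitted change was -1.60 ± 0.45 (edgeR adjusted p = 0.12), and -1.65 in DESeq2 (adjusted p = 0.047).

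Other genes of sugar metabolism were counted by 6 lists of words. For Stage A against Stage B, higher calls outnumbered lower ones in 5 of them on the TMM scale but not with library totals. The sixth, of invertase inhibitors, held 1 unigene, which was lower on both scales. Of all unigenes, 19.0% were higher and 28.0% lower in that comparison on the TMM scale. In Stage A against Stage B, 7 of 25 unigenes of sucrose synthesis were higher and 2 lower, or 28.0% and 8.0% (1 and 4 with library totals). For hexose phosphorylation 28 of 75 were higher and 15 lower, or 37.3% and 20.0% (17 and 32 with library totals), in a list whose words also take in 19 phosphofructokinases. For vacuolar and other sugar carriers 9 of 42 were higher and 5 lower, or 21.4% and 11.9% (5 and 12 with library totals). For starch 22 of 107 were higher and 17 lower, or 20.6% and 15.9% (11 and 29 with library totals). For trehalose phosphate 20 of 50 were higher and 5 lower (12 and 12 with library totals).

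Between Stages B and C, the most abundant unigenes of these lists changed less in level than the summed acid invertase families. Sucrose-phosphate synthases make the precursor of sucrose, and a 2-like unigene (Cluster-20417.232317) had medians of 199.6, 205 and 177 FPKM at Stages B, C and A, while a 3-like unigene (Cluster-20417.240677) had 118, 105 and 95.97 FPKM. Fructokinases phosphorylate fructose, and a fructokinase-8-like unigene (Cluster-20417.248416) had 251, 101 and 79.9 FPKM, while a fructokinase-1-like unigene (Cluster-20417.244126) had 169, 72.1 and 63.6 FPKM. In Stage A against Stage B these changed by -0.63 ± 0.18 and -0.55 ± 0.20, under the fold limit on the TMM scale, and by -1.26 and -1.18 with library totals, past it. Of the monosaccharide-sensing proteins, which carry sugars into the vacuole in Arabidopsis, Cluster-20417.246362 had 94.2, 46.6 and 68.1 FPKM and Cluster-20417.239995 had 80.7, 40.3 and 60.5 FPKM. A small subunit-like unigene of glucose-1-phosphate adenylyltransferase (Cluster-20417.238240), the enzyme that makes the building block of starch, had 60.3, 137 and 125 FPKM and rose by 1.57 ± 0.16 (0.94, under the fold limit, with library totals), and another (Cluster-20417.239987) had 83.9, 133 and 95.1 FPKM. A trehalose-phosphate synthase 7-like unigene (Cluster-20417.234859) had 41.4, 39.1 and 69.1 FPKM and rose by 1.64 ± 0.18 (0.99 with library totals), and a 5-like unigene (Cluster-20417.244253) had 78.3, 29.1 and 24.5 FPKM. A C/VIF2-like inhibitor of beta-fructosidases (Cluster-20417.176488) had 7.28, 12.9 and 1.31 FPKM and fell by 1.57 ± 0.27.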

How the data were processed

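Perianth tube, inner lobes and outer lobes of 63 hyacinth flowers gave 189 poly-A RNA-seq libraries. The authors assembled the transcripts de novo with Trinity, and the deposited expected counts come from RSEM after alignment with Bowtie (versions not given in the sources used here), so they need not be whole. The authors deposited FPKM values too, scaled by transcript length and library total. Unigenes carry the names that the deposited annotation gives.

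Members and lists were chosen with earlier results of these data known. Expected counts were rounded, and a unigene that reached 10 counts in 3 or more columns was tested in edgeR 4.0.16 (R 4.3.3, limma 3.58.1) with TMM factors. Flowers were fitted with stage and cultivar after their partitions had been summed, and libraries with partition and the cultivar and stage of the flower. The interaction of stage and cultivar and that of partition and stage were fitted as further terms. Sums of families were described without a test. Scripts were tested on simulated data. Alternatives changed the scaling, filter, tool (DESeq2 1.42.0, limma voom), replicates and pairing.

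Partitions of the same flower deviated together from their group means (median r = 0.493, 187 of 189 pairs over 0.1), so the flower pairs them. The edgeR fits of partitions had no term for the flower, so their p-values and errors leave this pairing out. A flower block was fitted only as an alternative, in limma voom. Text named the 3 most abundant members of each family, the 3 called members with the smallest p in each direction of each comparison (4 in the F tests) and the 2 most abundant of each pathway list. Cluster-20417.279417, Cluster-20417.208570, Cluster-20417.13292, Cluster-20417.169217, Cluster-20417.160150, Cluster-20417.159634 and Cluster-20417.103041 were named after their values were seen, and the B class list was chosen then too.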

Additional observations from a re-analysis of the deposited data

Results flagged for a closer look

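In 129 members, or 65.8%, the change over stages differed between cultivars, as tested by the interaction of stage and cultivar in edgeR, against 23.3% of all unigenes. All unigenes, unlike the members, had no minimum of mean FPKM. With the same minimum as the members, the share was 48.0% in the sucrose synthesis list and 54.7% in the hexose phosphorylation list. It was 45.2% in the list of vacuolar and other sugar carriers, 54.2% in the starch list and 54.0% in the trehalose phosphate list. The 1 unigene of the invertase inhibitor list was called, and the share in the stamen and pollen list was 22.5%. The count was 68 to 79 when the flowers of any one number were left out. The smallest adjusted p-values were 9.5e-10 for the SWEET16-like Cluster-20417.247890, lowest in 'City of Haarlem' at Stages C and A and in 'Delft Blue' at Stage B, 5.7e-09 for the SWEET4-like Cluster-20417.198465, high in green buds of 'Delft Blue', and 1.9e-07 and 3.4e-07 for the cytosolic invertase 1-like Cluster-20417.201139 and Cluster-20417.248764, whose levels at Stages C and A were lowest in 'Gipsy Queen'.

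In 36 members the log2 fold change of tube against lobes at Stage A differed from that at Stage B, as tested by the interaction of partition and stage in edgeR, against 6.50% of all unigenes higher and 2.16% lower. The count was 23 without the flowers numbered 2. The differences were 3.13, 2.81 and 3.03 for the sucrose synthase-like Cluster-20417.244621, Cluster-20417.204672 and Cluster-20417.263432, and -1.47, -3.74 and -2.56 for the inhibitor-like Cluster-20417.174911 and Cluster-20417.139689 and the MST3-like Cluster-20417.317689. The last was no longer called without the flowers numbered 3 (adjusted p = 0.30) or those high in stamen genes (adjusted p = 0.26). The value of Cluster-20417.139689 rests on counts near 0 at Stage B.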

How the results depend on the processing

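Library totals, limma voom, counts of the lobes alone and the omission of flowers high in stamen genes were chosen after seeing the data. Of 113 alternative counts of called members 92 stayed within 1.5 times the reported one, and all 126 alternative ratios of family sums moved by less than the spread between cultivars. That spread was wider than some ratios, which could have reached 0 within it. For sucrose transport proteins in Stage A over Stage B the log2 ratio was 0.085 and the SD 0.181. With one number left out, this ratio ran from 0.00039 to 0.18. At an adjusted p under 0.05 alone the counts were 138 in Stage C against Stage B, 105 in Stage A against Stage C, 95 in tube against lobes, 5 in inner against outer lobes and 63 in the change of tube against lobes with stage. In China Pink against Delft Blue, DESeq2 called 2, library totals 1, no filter 1 and every library as a replicate 2. In inner against outer lobes DESeq2, limma voom, the fit without cultivar and stage and that without flowers high in stamen genes each called 0. In edgeR 25 of 192 members had an unadjusted p under 0.05 there, as had 18573 of all 167352 unigenes.

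Leaving out the flowers of one number gave 101 to 107 called members in Stage A against Stage B, 76 to 79 in Stage C against Stage B, 31 to 38 in Stage A against Stage C, 128 to 135 between cultivars, 0 to 4 in China Pink against Delft Blue, 68 to 79 for stage by cultivar, 26 to 31 in tube against lobes, 0 to 1 in inner against outer lobes and 23 to 36 for the change of tube against lobes with stage. Fewer flowers entered these fits.

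Flowers of the same number did not regularly deviate together between stages (median r = 0.0270, over 0.1 in 28.6% of pairs) or cultivars (median r = 0.0719, over 0.1 in 46.6% of pairs), so that the number only names a flower there. With the number as a replicate block, 110, 83 and 40 members were called in Stage A against Stage B, Stage C against Stage B and Stage A against Stage C, 143 between cultivars, 0 in China Pink against Delft Blue and 115 for stage by cultivar. With the flower as a replicate block in limma voom, 25 were called in tube against lobes, 0 in inner against outer lobes and 36 in the change with stage, and without the block limma voom called 25, 0 and 29.

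Of 1538 alternative values of named unigenes 1448 kept direction and call, 45 lost and 21 gained a call, and 24 changed sign, none of them called as reported. The sign changes were as follows, in log2 units. With library totals, Stage A against Stage B was -0.053 for Cluster-20417.232317, -0.44 for Cluster-20417.239995, -0.31 for Cluster-20417.240677 and -0.45 for Cluster-20417.246362, Stage C against Stage B was -0.37 for Cluster-20417.223603, -0.26 for Cluster-20417.235886 and -0.12 for Cluster-20417.247890, and tube against lobes was 0.15 for Cluster-20417.216434, 0.034 for Cluster-20417.223603 and 0.092 for Cluster-20417.229080. Cluster-20417.247890 in Stage A against Stage B lay between -0.13 and 0.045 when the flowers of one number were left out and was 0.093 without flowers high in stamen genes and 0.060 with every library as a replicate, where Cluster-20417.223603 was 0.068. Cluster-20417.223603 in Stage C against Stage B was -0.025 in DESeq2, -0.021 with its size factors and between -0.030 and 0.21 with one number left out. In tube against lobes Cluster-20417.216434 was 0.018 with size factors, between -0.073 and 0.077 with one number left out, 0.039 with the flower block, 0.0022 in limma voom and 0.18 without cultivar and stage, and Cluster-20417.229080 was between -0.20 and 0.036 with one number left out and 0.029 without cultivar and stage. The cause of these shifts was not tested. Levels near 0 FPKM rest on few counts.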
